A study of Mus musculus with 31 samples.

Results

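The genes described here are 10 enzymes that add or remove methyl groups on H3K9, a lysine of histone H3, among the 20544 gene symbols of a count table from single mouse 2-cell embryos. They were chosen by name, as the writers Suv39h1, Suv39h2, Setdb1, Ehmt1 and Ehmt2 and the erasers Kdm3a, Kdm3b, Kdm4a, Kdm4b and Kdm4c, and all 10 were among the 8571 genes with enough counts to be tested. Embryos were made by in vitro fertilization of oocytes from superovulated CD1 females (8 to 10 weeks old) with sperm of C57BL/6J males (12 to 14 weeks old), all wild type. For the 15 SER-generated embryos, sperm were held without glucose and pyruvate until they stopped moving, which took 15 to 45 min, and were then given both back (sperm energy restriction and recovery, SER). For the 16 control-generated embryos, sperm stayed in complete medium throughout. Insemination lasted 4 h in both groups and embryos were collected at 32 h post-insemination (HPI). One cauda epididymis of a male went to each treatment, and the labels name neither the male, the oocyte donor nor the batch of an embryo, so p-values measure only the spread between these embryos.

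H3K9 methylation marks silent chromatin. Suv39h1 and Suv39h2 trimethylate H3K9 at pericentromeric heterochromatin, Setdb1 does so at retrotransposons to which Trim28 and KRAB zinc-finger proteins bring it, and Ehmt1 and Ehmt2 act as a heterodimer that mainly mono- and dimethylates H3K9 in gene-rich chromatin. Kdm3a and Kdm3b remove mono- and dimethyl groups, and Kdm4a, Kdm4b and Kdm4c remove tri- and dimethyl groups from H3K9 and act on H3K36 too. In the mouse zygote the mark is abundant on maternal chromatin and low on paternal chromatin, and the enzymes of the first cleavages come from oocyte stores and from zygotic genome activation, which is strongest at the 2-cell stage.

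RNA was read by Smart-seq3, and values are given as CPM, a gene's counts scaled by the library's total counts on genes, or as CPM per kb of exon where genes are compared with each other. CPM is a share of a library made from a whole embryo, so less RNA of a gene in both blastomeres and its loss from 1 of them cannot be told apart. The libraries of the controls held 532945 to 2085222 counts, with a median of 955806.5, and those of the SER group 642321 to 3088396, with a median of 1375557. A score of zygotic activation, the mean log2 CPM of 9 transcripts of the 2-cell burst, was 4.16 to 6.45 in 29 embryos but 1.86 in control replicate 4 and 2.62 in SER replicate 15. A score of 14 oocyte transcripts was 6.23 to 7.80 in 27 embryos and 8.35 to 9.07 in 4, control replicates 1, 3 and 4 and SER replicate 15. Results that rest on these embryos are given with and without them. Of 12 cumulus and granulosa markers and 8 sperm and testis markers none had enough counts to be tested. The cumulus markers summed to 1653 CPM in control replicate 5, of which Cyp11a1, a steroidogenic enzyme, made 1423 CPM, and to at most 101 CPM in any other embryo, while the sperm markers summed to at most 30.9 CPM. Has2, which makes the cumulus matrix, had a median of 0 CPM.

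The promoters of Kdm3a and Kdm4c are shown because the levels of these erasers moved together most closely among the 10 genes. RefSeq promoter sequences (GRCm38.p6) were used for 8 of the 10 genes, with 13 transcription starts in all, and not for Kdm3b and Kdm4b. The stretches below lie within 250 bases upstream of a start and outside the exons of their gene, with CG dinucleotides in capitals. For Kdm3a, 177 bases upstream of the outermost start are given (chr6:71632991-71633167, minus strand). For Kdm4c, 250 bases are given upstream of the outermost start (chr4:74242247-74242496, plus strand) and of the next start inside the gene (chr4:74251629-74251878, plus strand).
Kdm3a, start 1: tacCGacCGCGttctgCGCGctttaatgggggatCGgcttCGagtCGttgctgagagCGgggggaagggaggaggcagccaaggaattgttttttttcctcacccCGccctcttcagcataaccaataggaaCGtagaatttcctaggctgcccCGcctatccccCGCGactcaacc
Kdm4c, start 1: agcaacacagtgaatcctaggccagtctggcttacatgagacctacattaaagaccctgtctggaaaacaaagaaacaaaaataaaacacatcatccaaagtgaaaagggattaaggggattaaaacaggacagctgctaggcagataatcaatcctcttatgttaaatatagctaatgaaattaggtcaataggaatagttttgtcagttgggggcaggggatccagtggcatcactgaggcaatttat
Kdm4c, start 2: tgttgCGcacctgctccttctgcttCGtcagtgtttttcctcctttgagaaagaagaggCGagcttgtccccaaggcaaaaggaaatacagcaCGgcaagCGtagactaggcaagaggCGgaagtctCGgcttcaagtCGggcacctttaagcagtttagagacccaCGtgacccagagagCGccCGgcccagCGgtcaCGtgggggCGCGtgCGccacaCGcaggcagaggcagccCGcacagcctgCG
The outermost Kdm4c window held no CG, as did 7.77% of all 32619 windows of this length, whereas its next start had 19 and the outermost Kdm3a start had 20 in its full 250 bases. The median over all windows was 6. The CCAAT box (CCAAT), searched on both strands, occurred at 2 positions of the full Kdm3a window and in neither Kdm4c window, and 34.0% of all windows had it. The GC box (GGGCGG) occurred at 2 positions of the full Kdm3a window and in neither Kdm4c window (33.0% of all windows). The 177 bases shown for Kdm3a hold 1 match of each of these boxes. The core of the hypoxia response element (ACGTG) occurred at 4 overlapping positions on the 2 strands of the second Kdm4c window and not in that of Kdm3a (16.7% of all windows). None of these 3 windows held TATAAA (12.4% of all windows). Kdm3a has further starts inside the gene, which are not shown. The windows of its starts 2 and 3 held 31 and 0 CG and 4 and 0 GC boxes, and neither held CCAAT. These matches describe the letters only.

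Among the writers, Suv39h1 (chrX:8061171-8074760, GRCm38) was at 28.9 CPM in the lowest, 107 in the median and 305 in the highest control-generated embryo. In SER-generated embryos the corresponding values were 40.1, 191 and 287 CPM. The ranges overlapped, but the control median was exceeded in 14 of the 15 SER-generated embryos, and the mean was 124 ± 69.0 CPM (SD, n = 16) against 184 ± 64.5 (SD, n = 15). The log2 fold change was 0.55 ± 0.25 (SE), with p = 0.0366 before and an adjusted p of 0.813 after Benjamini-Hochberg adjustment in edgeR's quasi-likelihood test over all genes, so the difference did not pass the threshold of 0.1. Its 95% interval of the fold was 1.02 to 2.10. Suv39h2 (chr2:3455815-3475031), the paralog first known from testis, went the other way in its estimate. It was at 42.7, 104 and 171 CPM (lowest, median, highest) in control-generated embryos and at 34.4, 76.6 and 141 CPM in SER-generated embryos, of which 4 of 15 lay above the control median. The log2 fold change was -0.28 ± 0.22 with an adjusted p of 0.935 in edgeR. The depth of a library moved with both genes, since over the 31 embryos r of log2 CPM with the log2 total was 0.39 for Suv39h1 and -0.46 for Suv39h2. With the log2 total as a covariate their log2 fold changes were 0.37 and -0.03, whereas with all libraries thinned to the smallest total they were 0.53 and -0.46, again without a call by edgeR. Of the exonic bases of Suv39h2, 357 (8.10%) overlap Dclre1c on the opposite strand. Antisense genes outside the count table overlap 14.6% of the exonic bases of Suv39h1 (Gm14820) and 24.6% of those of Kdm3b (Gm26538), and the strand setting of the counting is not given in the sources used here.

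Set against each other per kb of exon, Suv39h2 exceeded Suv39h1 in 9 of 16 control-generated embryos and in 1 of 15 SER-generated embryos. The log2 ratio of Suv39h2 to Suv39h1 was 0.07 ± 1.00 (SD, n = 16) and -0.80 ± 0.81 (SD, n = 15), with ranges of -2.57 to 1.49 and -2.78 to 0.99. The difference of -0.87 stands beside a pooled SD of 0.91 between single embryos, which is not the error of a difference of means. The groups overlapped over most of their range. With all libraries thinned to the smallest total the difference was -1.10, larger in size than the pooled SD of 0.98 there. It was -0.81 without control replicate 4 and SER replicate 15, and -0.49 at equal log2 total. Within the groups the ratio was lower in deeper libraries (Pearson's r = -0.56 and Spearman's rho = -0.38 in 16 control-generated embryos, r = -0.38 and rho = -0.26 in 15 SER-generated embryos), and the part of depth in the difference was not separated further. The pair was set side by side with earlier results of these data known, and the ratio was given no test.

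**Figure D1:**
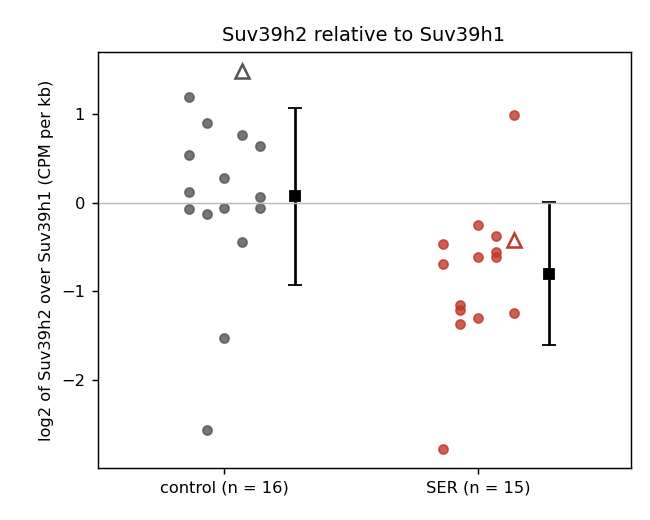
Log2 ratio of Suv39h2 to Suv39h1 in CPM per kb of exon (y axis) in each of 16 control- and 15 SER-generated embryos; squares and bars are the mean and SD, and open triangles are control replicate 4 and SER replicate 15. In 9 control-generated embryos and 1 SER-generated embryo the point lies above 0, and the ranges overlap.

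Setdb1 (chr3:95323525-95357202) was at 11.8, 91.4 and 167 CPM (lowest, median, highest) in control-generated and at 35.3, 81.3 and 158 CPM in SER-generated embryos. The groups covered nearly the same range, and the log2 fold change was -0.04 ± 0.27 (adjusted p = 0.992, edgeR). Ehmt1 (chr2:24789928-24919614) was at 21.2, 56.2 and 138 CPM in control-generated and at 38.3, 73.2 and 105 CPM in SER-generated embryos, with 11 of 15 above the control median. Its log2 fold change was 0.26 ± 0.23 (adjusted p = 0.936, edgeR). Its partner Ehmt2 (chr17:34898469-34914052) was the least abundant of the 10, at 0, 18.5 and 59.9 CPM in control-generated and 0, 9.63 and 76.9 CPM in SER-generated embryos. Ehmt2 had no count in control replicate 4, SER replicate 8 and SER replicate 13, which allows up to 4.53, 4.67 and 1.30 CPM by counting error alone. Its log2 fold change of 0.08 ± 0.57 had a 95% interval from 0.473-fold to 2.36-fold, the widest of the 10, and became -0.02 without control replicate 4 and 0.25 without control replicate 5, the embryo with the high cumulus marker sum.

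Among the erasers, Kdm4a (chr4:118136957-118180043) was at 27.3, 148 and 306 CPM in control-generated and at 68.7, 199 and 307 CPM in SER-generated embryos, of which 12 of 15 lay above the control median. The log2 fold change was 0.30 ± 0.21 (adjusted p = 0.935, edgeR). Kdm4b (chr17:56326062-56402870) was at 2.93, 45.4 and 73.7 CPM and at 0, 31.1 and 76.6 CPM, with a log2 fold change of -0.04 ± 0.46 (adjusted p = 0.995, edgeR). Kdm4c (chr4:74242497-74405860) was at 0, 56.0 and 152 CPM and at 0.779, 65.3 and 127 CPM, with a log2 fold change of 0.22 ± 0.41 (adjusted p = 0.978, edgeR). Of the Kdm3 pair, Kdm3a (chr6:71588972-71632990) was at 3.02, 62.0 and 226 CPM in control-generated and at 0, 59.1 and 213 CPM in SER-generated embryos. Its log2 fold change was 0.20 ± 0.45 (adjusted p = 0.981, edgeR). Kdm3b, on chromosome 18, was at 6.75, 62.8 and 112 CPM and at 0.779, 62.9 and 109 CPM, with a log2 fold change of 0.28 ± 0.32 (adjusted p = 0.960, edgeR). For each of the erasers the ranges of the groups overlapped almost entirely. The control median was exceeded in 4 of 15 SER-generated embryos for Kdm4b, 7 for Kdm3a, 8 for Kdm3b and 10 for Kdm4c. Among the writers it was exceeded in 7 of 15 for Setdb1 and for Ehmt2. No such count over all genes is given.

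**Figure D2:**
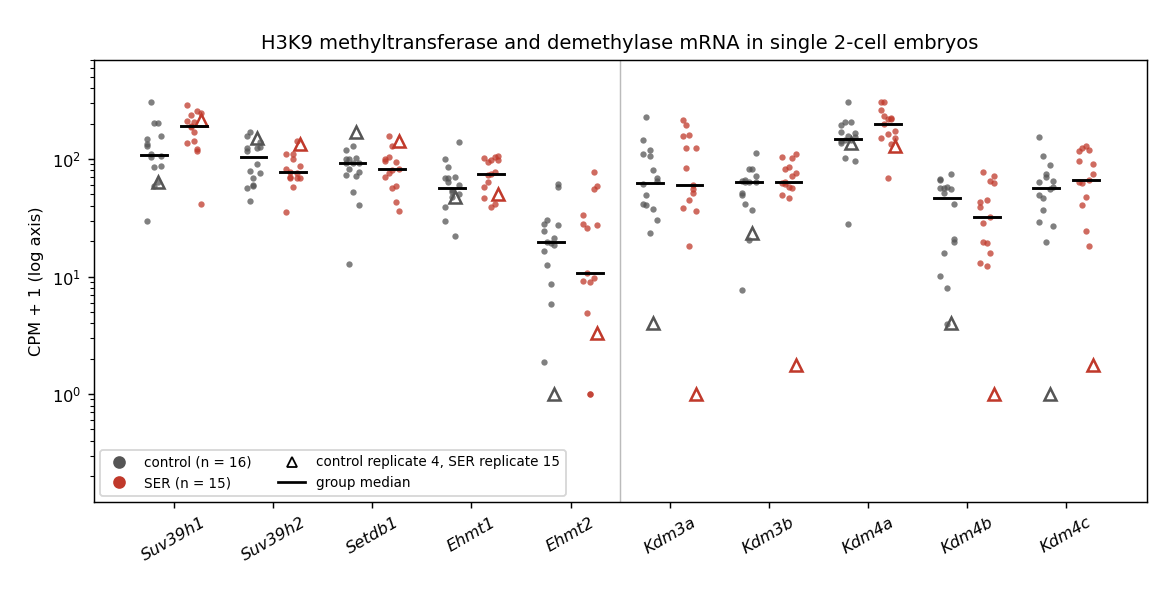
CPM + 1 on a log axis (y) for the 5 writers, left of the line, and the 5 erasers, right of it, in 16 control- (grey) and 15 SER-generated embryos (red); bars are group medians, and open triangles are control replicate 4 and SER replicate 15. The groups overlap for each gene, and the triangles fall far below the other points for Kdm3a and Kdm4c. Both triangles lie near the low end for Kdm3b, Kdm4b and Ehmt2 too, but not for Suv39h2, Setdb1 or Kdm4a.

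In the comparison of the groups, which asks whether the treatment of the sperm is seen in the mRNA of the embryo, no member was called at an adjusted p under 0.1. Neither was any of the 8571 genes tested by edgeR (0 called, 0%), with 491 genes at an unadjusted p under 0.05, of which Suv39h1 was the only member. The estimate was higher in SER-generated embryos for 7 of the 10 members and for 4515 of all 8571 genes, and the median log2 fold change was 0.02 over all genes. By other tools on the same counts, DESeq2 called 46 of 7178 genes (0.641%) and no member. limma voom with sample quality weights called 848 of 8571 (9.89%) and 1 member, Suv39h2, with a log2 fold change of -0.55 and an adjusted p of 0.0865. Leaving out control replicate 4 and SER replicate 15 gave no call by edgeR, with log2 fold changes of 0.49 for Suv39h1 and -0.30 for Suv39h2. The intervals show what these 31 embryos left undecided, since a change of up to 1.67-fold for Kdm4a and 2.17-fold for Kdm3a lay inside the 95% interval.

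**Figure D3:**
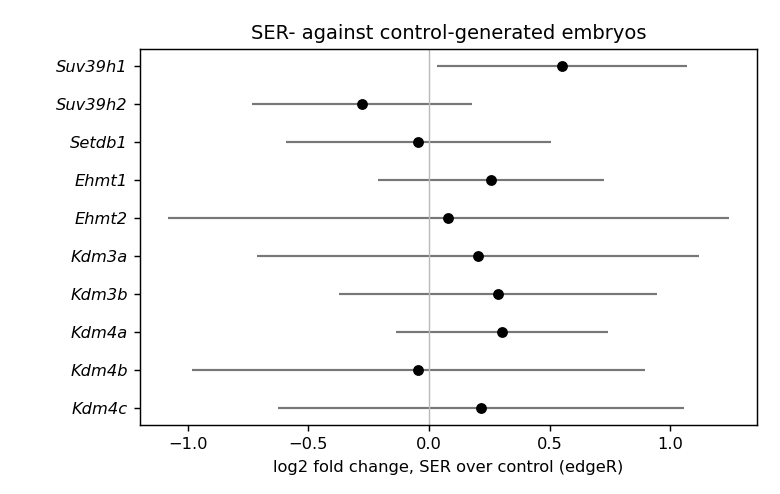
Log2 fold change of SER- over control-generated embryos from edgeR (x axis) for each of the 10 genes (y axis); lines are 95% intervals. Suv39h1 at 0.55 is the only gene whose unadjusted interval leaves out 0, and its adjusted p is 0.813.

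How uniform the embryos of a group were was asked by comparing each embryo's distance from its group median on the log2 scale (limma over all genes). None of the 8571 genes differed in this spread (0 called, 0%, with 255 at an unadjusted p under 0.05), and 6 of the 10 members had the lower estimate in SER-generated embryos, against 54.0% of all genes. After thinning to the smallest library these were 5 of 10 and 46.6%, again with no gene called and 180 at an unadjusted p under 0.05. The mean distance was 0.58 in the controls and 0.46 in the SER group for Suv39h1, and 0.98 and 1.47 for Ehmt2. Thinned, these were 0.62 and 0.41 for Suv39h1, and 1.11 and 1.25 for Ehmt2.

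The levels of the 10 genes differed among themselves. Per kb of exon, the median over 31 embryos was 28.3 CPM for Kdm4a, 26.8 for Suv39h1, 18.6 for Suv39h2, 13.3 for Setdb1, 10.7 for Kdm4c, 7.85 for Kdm4b, 7.80 for Ehmt1, 7.28 for Kdm3a, 4.46 for Kdm3b and 3.33 for Ehmt2. The median over 8457 tested genes of known exon length was 10.1. Neighbours in this order were often not apart: Kdm4a exceeded Suv39h1 in 17 of 31 embryos, Kdm4b exceeded Ehmt1 in 13 and Ehmt1 exceeded Kdm3a in 15. Per kb, the order also differed by group. The median for Suv39h2 (23.5) was above that for Suv39h1 (20.4) in the controls, whereas in the SER group Suv39h1 (36.3) was above Kdm4a (34.4) and Suv39h2 was at 17.4. Kdm4b was above Ehmt1 in the controls (9.28 and 6.92) and below it in the SER group (6.35 and 9.02). In CPM these genes kept the same order in both groups. The control medians were 148 CPM for Kdm4a, 107 for Suv39h1, 104 for Suv39h2, 56.2 for Ehmt1 and 45.4 for Kdm4b. In the SER group they were 199, 191, 76.6, 73.2 and 31.1 CPM. Over all 31 embryos, the clearest steps per kb were from Suv39h2 to Setdb1, in 25 of 31 embryos, and from Kdm3a to Kdm3b, in 24. Both steps depend on exon length, 4410 bases for Suv39h2 and 6853 for Setdb1, and 8225 for Kdm3a and 14095 for Kdm3b. In CPM without that scaling the medians went the other way, at 82.0 for Suv39h2 and 91.3 for Setdb1. They were 59.8 for Kdm3a and 62.8 for Kdm3b. Summed over the 5 genes, the erasers exceeded the writers per kb in 4 of 16 embryos of the control group and in 6 of 15 of the SER group. This count depends on exon length too, and no such count in CPM is given. Variation between embryos, as edgeR's biological coefficient of variation, was 0.42 for Kdm4a, 0.43 for Suv39h2 and 0.44 for Ehmt1 but 1.02 for Ehmt2, 0.83 for Kdm3a and for Kdm4b, and 0.75 for Kdm4c. These coefficients cover all 31 embryos and were not computed without control replicate 4 and SER replicate 15. In those embryos Kdm3a, Kdm4b and Kdm4c were at 3.02 CPM or less.

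Kdm3a and Kdm4c varied together. In control replicate 4 and SER replicate 15, the embryos of low zygotic score, Kdm3a was at 3.02 and 0 CPM and Kdm4c at 0 and 0.779 CPM, while the other 29 embryos held 17.4 to 226 CPM of Kdm3a and 17.1 to 152 CPM of Kdm4c. Both embryos were thus lowest for these 2 of the 10 members, as they were for 13.2% of the 8571 genes tested. The library of SER replicate 15 was deep, at 2567720 counts, and its 0 for Kdm3a allows up to 1.17 CPM. The other enzymes were not uniformly low there. Kdm4b was at 3.02 and 0 CPM, against a median of 40.7 in the other 29, and Kdm3b at 22.6 and 0.779 CPM, against 62.9. Ehmt2 was at 0 and 2.34 CPM, against 18.8, and Ehmt1 at 46.8 and 49.5 CPM, against 67.5. Suv39h1 was at 63.4 and 213 CPM, against 141. Suv39h2 was at 151 and 134 CPM, against a median of 78.7 in the other 29, Setdb1 was at 167 and 143 CPM, against 82.0, and Kdm4a was at 137 and 129 CPM, against 167. Among the other 29 embryos the residual log2 CPM of Kdm3a and Kdm4c, after removing group means, still had r = 0.69 and rho = 0.70. This was the highest r among the 45 pairs of members, picked as their maximum. The 90th percentile of r was 0.39 over the pairs of members and 0.41 over all pairs of genes tested. The medians were 0.07 and 0.005. Kdm3a and Suv39h2 had r = -0.60 and rho = -0.54, and Kdm3a and Kdm4a had r = 0.62 and rho = 0.62 in the same 29 embryos. These points come from single libraries of unequal depth, and the correlations are a description.

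**Figure D4:**
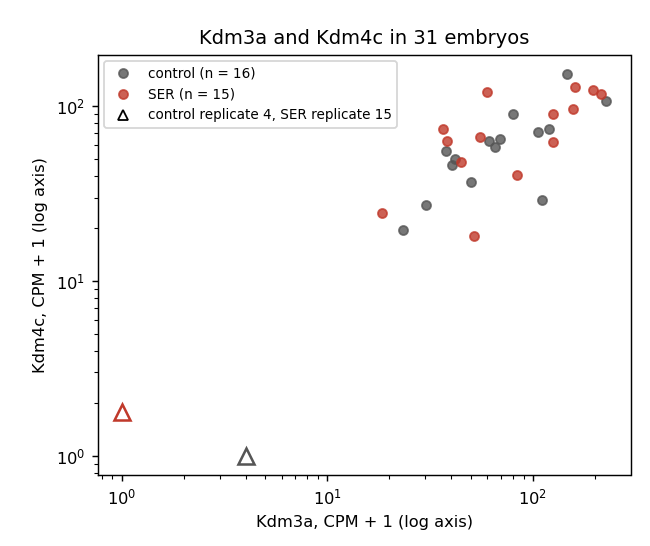
Kdm4c against Kdm3a, both as CPM + 1 on log axes, in 16 control- and 15 SER-generated embryos. Control replicate 4 and SER replicate 15 (open triangles) lie at the lower left, apart from the other 29. Among these 29, r of the residual log2 CPM after removing group means is 0.69. The points shown are not adjusted for group.

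Against the zygotic score, with the group in the model, the slope of 2 of 10 members was positive and passed the threshold in edgeR, where 15.9% of all 8562 genes did so. The slope was 0.90 ± 0.29 log2 units per SD of the score for Kdm3a (adjusted p = 0.0270) and 0.90 ± 0.26 for Kdm4c (adjusted p = 0.0159). Suv39h2 was lower in embryos of higher score, by a slope of -0.31 ± 0.10 (adjusted p = 0.0246, edgeR), as were 9.74% of all genes. Without control replicate 4 and SER replicate 15 these calls were lost, and the SD of the score fell from 0.94 to 0.60. Per unit of the score, which is comparable between these fits, the slope went from 0.95 ± 0.31 to 0.38 ± 0.29 for Kdm3a and from 0.96 ± 0.28 to 0.33 ± 0.25 for Kdm4c. For Suv39h2 it went from -0.33 ± 0.10 to -0.38 ± 0.18, so that its size did not fall. In the controls alone Kdm3a and Kdm4c were called by edgeR, beside 12.3% of genes higher and 3.85% lower, and in the SER group alone no member was, beside 0.759% and 0.806%. In the 29 embryos, Kdm3b had a slope of -0.36 ± 0.12 per SD (adjusted p = 0.0845, edgeR), where 2.07% of all genes were lower and 6.26% higher, and no other member was called. Within the 29 embryos r of log2 CPM with the score was -0.54 for Kdm3b, -0.44 for Suv39h2, 0.41 for Setdb1, 0.09 for Kdm3a and 0.06 for Kdm4c, with rho of -0.47, -0.47, 0.50, 0.13 and 0.15. The zygotic and maternal scores had r = 0.59 with each other in the same 29 embryos, so a slope on one is not separate from a slope on the other.

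Against the maternal score, Setdb1 was higher in embryos that held more of the oocyte transcripts (slope 0.42 ± 0.11, adjusted p = 0.0050, edgeR), as were 18% of all 8557 genes. Kdm3b (-0.65 ± 0.17, adjusted p = 0.0047), Ehmt2 (-0.89 ± 0.29, adjusted p = 0.0230) and Kdm4b (-0.74 ± 0.33, adjusted p = 0.0974) were lower by the same test, as were 14.6% of all genes. Kdm3b was at 0.779 CPM in SER replicate 15 and at 6.75, 19.5 and 22.6 CPM in control replicates 1, 3 and 4, the 4 embryos of highest maternal score, and at 35.8 to 112 CPM in the other 27. These 4 embryos held its 4 lowest values, as they did for 1.34% of all genes. Setdb1 was at 143 CPM in SER replicate 15 and at 100, 128 and 167 CPM in the same control replicates, and at 11.8 to 158 CPM in the other 27. Without control replicate 4 and SER replicate 15 the calls of Setdb1 (0.33 ± 0.12, adjusted p = 0.0564) and Kdm3b (-0.38 ± 0.13, adjusted p = 0.0371) remained in edgeR, beside 11% of genes higher and 9.36% lower. Without all 4 embryos no member was called by edgeR, beside 4.71% higher and 5.66% lower, and the SD of the score fell from 0.72 to 0.45. Per unit of the score, the slope went from 0.58 ± 0.15 to 0.51 ± 0.27 for Setdb1 (adjusted p = 0.243 in edgeR) and from -1.25 ± 0.41 to -1.48 ± 0.58 for Ehmt2 (adjusted p = 0.120 in edgeR), with little change in size. For Kdm3b it went from -0.90 ± 0.24 to -0.37 ± 0.22 (adjusted p = 0.301 in edgeR). In the controls alone Setdb1 and Kdm3b were called by edgeR, beside 9.23% of genes higher and 7.68% lower, and in the SER group alone Ehmt2 and Kdm3b, beside 10.3% and 9.9%. Without the 2 embryos farthest from the median maternal score Setdb1 and Kdm3b were called, beside 8.26% and 8.34%. Within the 27 embryos r was 0.36 and rho 0.47 for Setdb1, and r -0.44 and rho -0.42 for Kdm3b. Kdm4b changed the sign of its slope there, to 0.14 per SD.

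**Figure D5:**
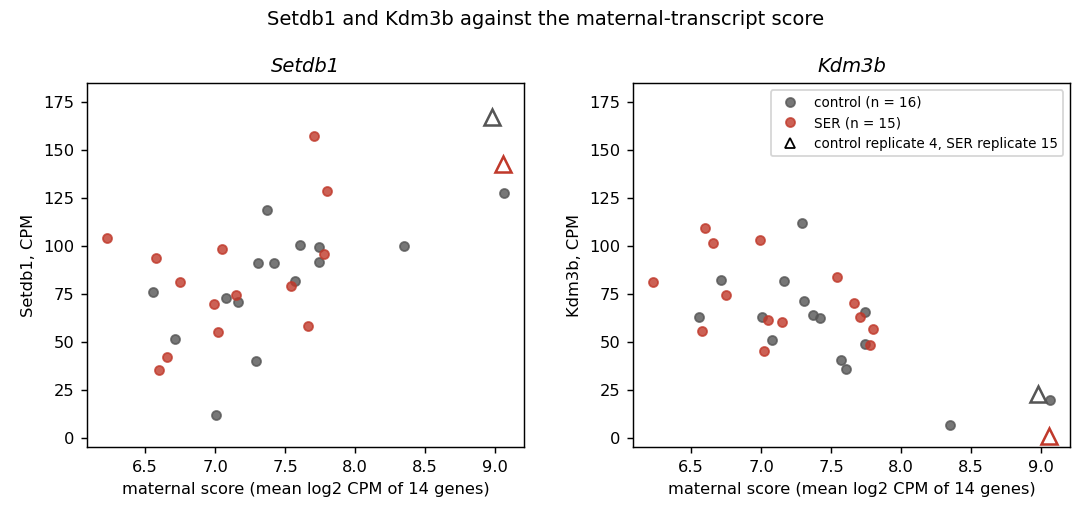
CPM of Setdb1 (left) and Kdm3b (right) against the mean log2 CPM of 14 oocyte transcripts in 16 control- and 15 SER-generated embryos; open triangles are control replicate 4 and SER replicate 15. Kdm3b is at most 22.6 CPM in the 4 embryos with scores of 8.35 or more and at least 35.8 CPM in the other 27.

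The genes most like each member over the 31 embryos, by Pearson's r of log2 CPM after removing group means, were the histone H3K4 demethylase Kdm5b for Kdm4c (r = 0.95, and 0.83 without control replicate 4 and SER replicate 15) and Cdc25c, a phosphatase of mitotic entry, for Kdm3a (0.90 and 0.77). The second for these were Ccdc36 and Tnpo3. For Suv39h2 they were Mapkap1 (0.84 and 0.81), a subunit of the mTORC2 kinase, and Spats2, and for Ehmt2 the splicing factor Srsf6 (0.81 and 0.76) and Ryr1, a calcium release channel. Kdm3b was nearest to Uap1l1 and Rfxap, with r falling from 0.86 and 0.85 to 0.68 and 0.66 without the 2 embryos. Kdm4b was nearest to Zc3h12a and Capn15, with r of 0.77 for both and 0.65 and 0.57 without the 2 embryos. Kdm4a was nearest to Ipo4 and Sfswap, Setdb1 to Riok1 and Hmgcs1, and Ehmt1 to Nr1h3 and Ccdc57, with r of 0.68 to 0.76. Suv39h1 had the least close neighbours, Ssh2 (0.63) and Inpp4a (0.60). Without the 2 embryos, Mapkap1 and Srsf6 kept rank 1 of 8570 genes and Ryr1 rank 2. Kdm5b fell to rank 6, Cdc25c to 7, Ccdc36 to 24 and Tnpo3 to 30. Zc3h12a fell to 32, Uap1l1 to 60, Rfxap to 79 and Capn15 to 134. The remaining neighbours ranked 2 to 17. Each neighbour is a maximum over all genes, and no background for such a maximum was computed.

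Of 35 other genes of the H3K9 pathway, 29 were tested and none differed between the groups in edgeR, where 0% of all genes were called. The 2 tested of 5 other writers, Prdm16 and Prdm2, had log2 fold changes of 0.50 ± 0.54 and -0.18 ± 0.21. Among 7 tested other erasers, 6 had the higher estimate in SER-generated embryos (median log2 fold change 0.18), with 0.49 ± 0.35 for Kdm1a, which removes methyl groups from H3K4 and in some complexes H3K9, and 0.28 ± 0.44 for Jmjd1c, a relative of Kdm3a. All 15 cofactors were tested and 8 were higher in their estimate. The smallest p values were those of Tasor, the scaffold of the HUSH silencing complex (0.58 ± 0.30, p = 0.0637, adjusted p = 0.869, edgeR), and of Atf7ip, the partner that stabilises Setdb1 in the nucleus (0.61 ± 0.32, p = 0.0644, adjusted p = 0.869, edgeR). Tasor was at 26.7 ± 14.4 CPM (SD, n = 16) in the controls and 40.7 ± 17.0 (SD, n = 15) in the SER group. Of 5 tested readers, Uhrf1, which binds methylated H3K9 and brings the maintenance DNA methyltransferase, had a log2 fold change of 0.41 ± 0.36 and Cbx1, a heterochromatin protein, one of -0.16 ± 0.31. With the zygotic score, 4 of 29 pathway genes were higher and 6 lower by edgeR, beside 15.9% and 9.74% of all genes. Without control replicate 4 and SER replicate 15 these were 2 higher and 1 lower, beside 6.26% and 2.07%.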

How the data were processed

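Per the labels and the study's methods, single-embryo Smart-seq3 libraries were split into 5′ reads with a molecular identifier and internal reads, aligned with STAR (build mm10), deduplicated with UMI-tools and Picard, merged and counted with featureCounts. The deposited values are whole-number counts, taken as those before the authors' ComBat-seq and DESeq2 steps. Tool versions and the strand setting are not given in the sources used here.

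Counts were tested with edgeR 4.0.16 (R 4.3.3) using TMM, filterByExpr (minimum count 10, minimum total 15), no covariates and Benjamini-Hochberg adjustment over all genes tested, with calls at an adjusted p under 0.1, as in the study's methods. Standard errors are the log2 fold change divided by the square root of F. Spread was tested with limma 3.58.1 on log2 CPM (prior count 2), and slopes on scores with edgeR, the score's own genes left out. Ratios used a pseudocount of 1 count. Exon lengths and positions are from GENCODE vM21 (GRCm38). Other fits used DESeq2 1.42.0 and limma voom. The edgeR tests of groups and slopes were tried on simulated counts, and the spread test on simulated normal values. DESeq2 and limma voom were not tried on simulated data. Floors of 3 counts and depth cover counting error only, and internal reads carry no molecular identifier. The batches of the embryos are not used here. All 10 genes, every other list gene called or the 2 of smallest p in each of 4 groups, and the 2 genes of highest r with each member were named, and genes outside that rule are marked. Members and lists were chosen with earlier results of these data known.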

Additional observations from a re-analysis of the deposited data

How the results depend on the processing

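In edgeR the number of genes called between the groups was 0 with DESeq2's size factors, a stricter filter (10 counts in 15 embryos), the library total as a covariate, thinning, an adjusted p under 0.05, the replicate block and without each embryo in turn. It was 504 without the filter, 46 by DESeq2, 848 by limma voom with quality weights, where 1 member was called, and 41 with 3 estimated clusters of embryos. Log2 fold changes near 0 turned in direction: Setdb1 to 0.076 by voom, 0.020 with the library total and 0.044 with the replicate block, Ehmt2 to -0.19 by voom, with the clusters -0.12 and with the block -0.65, Kdm3a to -0.064 and Kdm4b to 0.22 with the library total, and Kdm4b to 0.064 with the block. Leaving out each embryo gave -0.13 to 0.073 for Setdb1, -0.18 to 0.27 for Ehmt2 and -0.17 to 0.057 for Kdm4b. The causes were not tested. Same-numbered embryos were not treated as pairs in the main test. The r of their deviations was -0.37 to 0.49 over 15 pairs (median 0.11, 8 above 0.1). The best match was the embryo of the same number for 4 control- and 2 SER-generated embryos, and whether these share a batch was not tested. The replicate block changed no call, but edgeR called 0 genes without it too. Of members on the zygotic score, 2 (Kdm3a and Kdm4c) were called in control-generated embryos alone, 0 in SER-generated embryos alone and 1 without the 2 embryos farthest from the median. In these fits, taken in turn, 12.3%, 0.759% and 6.26% of all genes were higher and 3.85%, 0.806% and 2.07% lower. On the maternal score 2 were called in controls alone (Setdb1 and Kdm3b), in the SER group alone (Ehmt2 and Kdm3b), without the 2 farthest (Setdb1 and Kdm3b) and without the 2 of lowest zygotic score, and 0 without the 4 of highest score, where the slope of Kdm4b became 0.14. In the same order, 9.23%, 10.3%, 8.26%, 11% and 4.71% of all genes were higher. The shares lower were 7.68%, 9.9%, 8.34%, 9.36% and 5.66%. The settings without the 2 of lowest zygotic score and without the 4 were chosen after seeing the data. The Ehmt1 to Ehmt2 ratio difference moved from 0.70 to -0.07 and that of Kdm4c to Kdm4a from -0.18 to 0.07 on thinning, both within the spread. Depth limits Ehmt2 most, with a median of 18 counts.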

Other observations

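Some partners of the H3K9 enzymes stood apart in control replicate 4 and SER replicate 15; they are named after their values were seen. Zfp57, a KRAB zinc-finger protein that protects imprints, was at 4364 and 6500 CPM, against 102 to 520 in the other 29 embryos. Uhrf1 was at 601 and 1255 CPM, against 58.5 to 474, and Mphosph8, the HUSH subunit that reads methylated H3K9, was at 447 and 715 CPM, against 122 to 371. Trim28, the corepressor that joins KRAB zinc-finger proteins to Setdb1, was at 13.6 and 5.06 CPM, against 54.6 to 687. These embryos held the highest values for 3 of 29 pathway genes and for 4.87% of all genes tested, and the lowest for 1 of 29 and 13.2%.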
